A study of Homo sapiens with 9 samples.

Results

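Glycolysis genes and genes that respond to low oxygen were followed in SW1353, an established human line from a chondrosarcoma that serves as a stand-in for chondrocytes. The members were chosen by name from a list of 36 symbols covering glucose and lactate transporters, glycolytic enzymes, HIF subunits and HIF targets. Of these, 34 had a row among the 19389 genes of the deposited table, and EGLN1 and EGLN3 were not analysed here. RNA was sequenced in 3 groups of 3 libraries. Untreated cells received neither agent. The IL-1β group was exposed for 20 h to 20 ng/mL interleukin-1β, a cytokine that drives joint inflammation. The PBSL group was given PBSL, made from Protaetia brevitarsis seulensis larvae, for 2 h and then the same IL-1β exposure. The labels name PBSL at 50, 100 and 200 µg/mL without saying which was sequenced, and no library had PBSL alone. They do not say whether the libraries of a group came from separate cultures, so each p-value measures the spread between these libraries, which may be technical.

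Glycolysis splits glucose into pyruvate. Hexokinases (HK1, HK2) trap the sugar, phosphofructokinases (PFKL, PFKM, PFKP) commit it to the pathway, and the lower enzymes from TPI1 to PKM recover energy as ATP. PFKFB enzymes make and remove fructose 2,6-bisphosphate, the main activator of phosphofructokinase. Lactate dehydrogenase then converts pyruvate to lactate, which leaves the cell through monocarboxylate transporters (SLC16A1, SLC16A3). When oxygen is low, the hypoxia-inducible factors HIF1A and EPAS1 (HIF-2α) escape the prolyl hydroxylases that mark them for destruction, pair with ARNT and bind the core of the hypoxia response element. HIF-1α protein is set largely by this degradation, so a transcript level of HIF1A is not a measure of HIF activity. Cartilage has few vessels, and chondrocytes rely on glycolysis.

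The members fell into 6 patterns of calls over the comparisons, and 6 genes were called in opposite directions with IL-1β and then with PBSL. Their promoters are shown because they are the members with a call in the second comparison. That is 6 of 34 members, where 22.5% of all tested genes were called in that comparison. Genes called in opposite directions in both comparisons were not counted over all tested genes, so that pattern has no background here. Both comparisons use the IL-1β libraries, and 1 of the 6 calls (CA9) held in 2 of 14 alternatives. Each sequence is the 250 bases before the first listed transcription start in RefSeq (GRCh38.p14), read 5′ to 3′ on the strand of the gene. Capitals mark the core motif ACGTG or GCGTG on either strand, which appears as CACGT or CACGC when it lies on the other strand; the palindrome CACGTG is counted once on each strand.

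PFKFB3, chr10:6144671-6144920, plus strand: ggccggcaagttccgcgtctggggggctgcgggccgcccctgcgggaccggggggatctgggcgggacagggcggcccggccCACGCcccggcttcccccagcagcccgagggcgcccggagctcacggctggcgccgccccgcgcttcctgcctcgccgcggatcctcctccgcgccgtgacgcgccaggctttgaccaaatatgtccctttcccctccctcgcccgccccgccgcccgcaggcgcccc

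PFKFB4, chr3:48556804-48557053, minus strand: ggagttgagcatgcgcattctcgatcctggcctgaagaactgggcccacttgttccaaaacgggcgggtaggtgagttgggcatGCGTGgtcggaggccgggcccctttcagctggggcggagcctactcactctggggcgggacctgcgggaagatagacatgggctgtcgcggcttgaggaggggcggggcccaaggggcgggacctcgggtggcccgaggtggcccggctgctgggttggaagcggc

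CA9, chr9:35673678-35673927, plus strand: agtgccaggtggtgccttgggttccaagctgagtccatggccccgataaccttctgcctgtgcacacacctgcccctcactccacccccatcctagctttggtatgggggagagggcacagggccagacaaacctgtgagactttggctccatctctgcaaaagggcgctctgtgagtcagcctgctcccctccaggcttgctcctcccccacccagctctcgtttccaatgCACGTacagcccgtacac

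CA12, chr15:63381847-63382096, minus strand: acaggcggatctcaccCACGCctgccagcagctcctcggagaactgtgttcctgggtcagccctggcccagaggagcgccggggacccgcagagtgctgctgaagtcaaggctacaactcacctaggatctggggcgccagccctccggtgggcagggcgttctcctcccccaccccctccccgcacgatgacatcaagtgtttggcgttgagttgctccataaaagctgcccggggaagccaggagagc

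KDM3A, chr2:86441121-86441370, plus strand: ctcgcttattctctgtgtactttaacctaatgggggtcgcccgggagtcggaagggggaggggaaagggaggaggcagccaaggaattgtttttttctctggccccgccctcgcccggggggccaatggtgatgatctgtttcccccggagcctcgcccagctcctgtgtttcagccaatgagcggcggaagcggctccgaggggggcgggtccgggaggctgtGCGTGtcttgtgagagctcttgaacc

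LDHB, chr12:21657843-21658092, minus strand: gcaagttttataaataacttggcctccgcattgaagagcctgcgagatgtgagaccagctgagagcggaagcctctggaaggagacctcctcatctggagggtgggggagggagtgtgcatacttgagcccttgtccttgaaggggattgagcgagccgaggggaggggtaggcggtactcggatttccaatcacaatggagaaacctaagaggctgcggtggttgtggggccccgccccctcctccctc

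The 5 genes that rose with IL-1β and fell with PBSL each had 1 core motif in these 250 bases, as 57.8% of tested genes had at least 1 there. LDHB, which did the reverse, had none there and 1 once the 50 bases after the start were added. In CA9, which encodes a carbonic anhydrase used as a marker of hypoxia, the motif began 18 bases before the start. PFKFB3 and KDM3A have 2 listed starts each, and the windows from 250 bases before to 50 after both starts held the motif. RefSeq promoters were found for 30 of the 34 members. Over 300 bases, from 250 before to 50 after the start, 23 of 30 member promoters (76.7%) held the motif, against 63.6% of 9518 promoters of tested genes and 48.4% of all 27305 promoters. Among members that rose with IL-1β the share was 13 of 17 (76.5%), and among those not called it was 9 of 12 (75.0%). BNIP3 had 6 motif starts in the 250 bases, and ALDOC and LDHA had 5 each. Besides LDHB, the members with none in the 250 bases before the first start were HK1, PDK1, PFKM, PFKP, PGAM1, PKM, SLC16A3, SLC2A1 and TPI1. A match of 5 letters is a description of the sequence and not a binding site.

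Expression values are those deposited, in a unit not named in the sources used here. They are per transcript length: among genes at 0 in some library, the median lowest value above 0 fell from 0.067 in the 796 shortest genes to 0.013 in the 796 longest. They summed to 523758 to 553196 per library. The depth of the libraries is unknown, since reads cannot be recovered from such values, and no counting interval is given. Fold changes are differences of log2(value + 1), tested with limma over all 9 libraries. The spread of a gene was estimated over all 3 groups. A limma p-value for 2 groups thus also takes in the spread of the group not compared. A gene was called where its p, adjusted by Benjamini-Hochberg over 11924 tested genes, was under 0.05. All 34 members were tested, and each was at 1 or more in every library (the lowest was 1.848, CA9 in untreated 1), so no member entered through 1 group alone. All 8 genes listed as a check of the IL-1β response rose, among them CXCL8 from 2.30 to 1021. That list was chosen with earlier results of these data known, so its count is a description. The chondrocyte collagens COL2A1, COL9A1 and COL11A2 and the matrix protein gene COMP were below 1 in every library. The chondrocyte regulator SOX9 was at 12.02 in untreated cells and 8.80 with IL-1β. Of the 4 chondrocyte markers tested, 3 fell with IL-1β, SOX9 among them, and 1 rose (ACAN, from 0.501 to 1.43). The summed chondrocyte list ran from 18.7 to 20.94 in untreated, 14.19 to 15.58 in IL-1β and 12.65 to 14.49 in PBSL libraries. Of the other cell types, the 6 endothelial markers were below 1 throughout, as were PTPRC, CD14, CD163 and ITGAM of the leukocyte list. The summed leukocyte list, led by CD68 at 71.6 in untreated cells, ran from 72.7 to 79.9 in untreated, 98.8 to 102.1 in IL-1β and 84.1 to 89.9 in PBSL libraries, and the summed epithelial list from 138.1 to 156.4, 76.9 to 78.5 and 57.9 to 77.2. These sums mix directions. With IL-1β, 1 of the 3 tested epithelial markers rose and 2 fell, with log2 fold changes from -1.09 to 1.03. Of the 3 tested leukocyte markers, 2 rose and 1 fell. In bulk RNA, fewer cells of a type and less RNA per cell cannot be told apart. The part of these lists in the results was not tested. Deviations from the group mean were widest in the PBSL libraries, with an SD over genes of 0.117 to 0.131 on the log2 scale, against 0.0759 to 0.0808 with IL-1β.

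IL-1β alone raised both glucose transporters, both hexokinases, both PFKFB regulators, both lactate exporters, both HIF alpha subunits and most other HIF targets. The most abundant enzymes, from GAPDH to ALDOA, were not called. Of 34 members, 20 rose (58.8%) and 1 fell (2.94%). Over all tested genes 16.2% rose and 16.0% fell, 32.1% in all. The median log2 fold change was 0.35 over the members and -0.0049 over all tested genes. A count over a list chosen with earlier results known is a description and no independent support for its direction. The 3 libraries of the IL-1β group lay wholly above the untreated ones for 26 members and wholly below for 1, against 25.7% and 27.1% of all tested genes (52.8% in either direction).

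**Figure D1:**
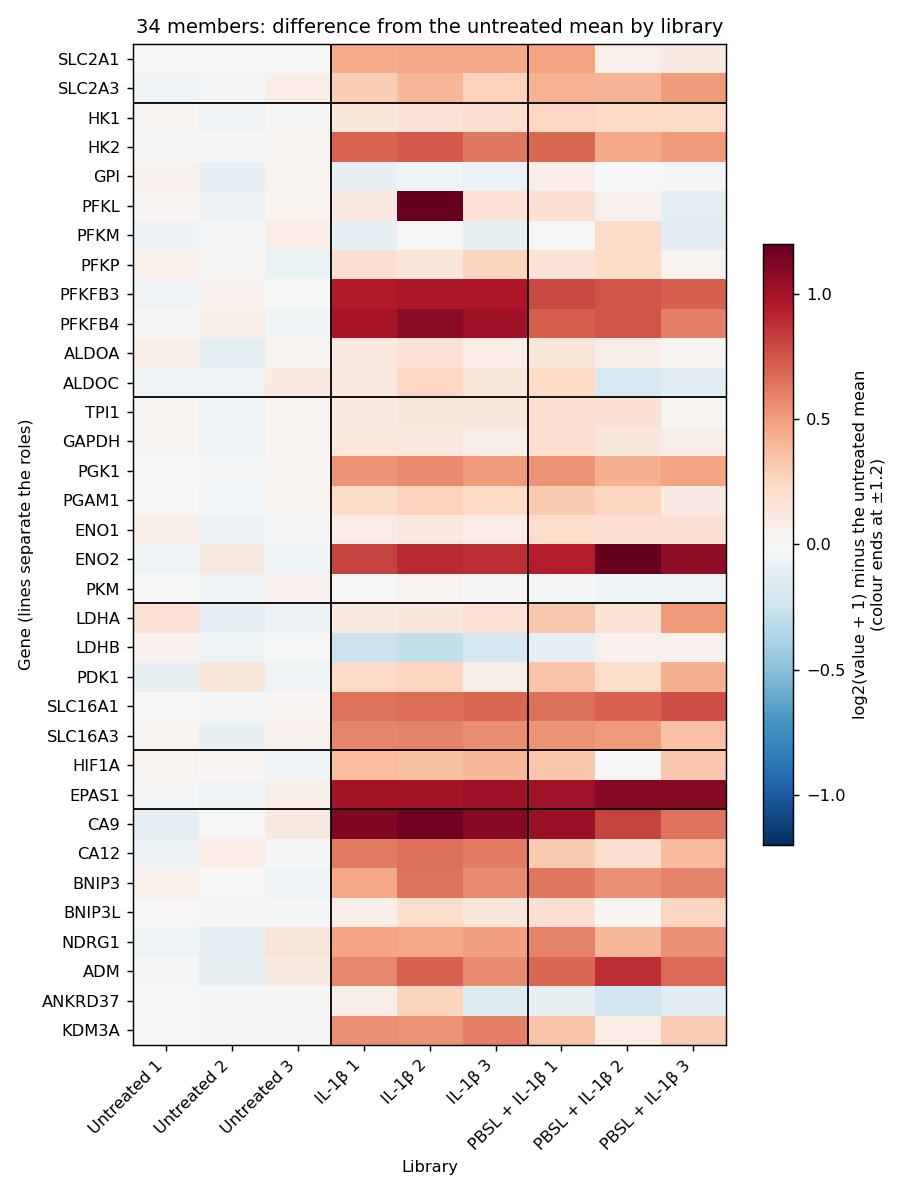
Heat map of the 34 members (rows, grouped by role) in the 9 libraries (columns), coloured by log2(value + 1) minus the untreated mean, with the colour scale ending at ±1.2. CA9, EPAS1, PFKFB4 and PFKFB3 are darkest across the IL-1β libraries, PFKL stands out in IL-1β 2 alone, and SLC2A1 is near the untreated level in PBSL 2 and PBSL 3.

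Both glucose transporters rose. SLC2A1 (GLUT1), the basal glucose carrier, had values of 47.2, 46.9 and 46.6 in untreated libraries and 64.2, 64.5 and 64.8 with IL-1β (log2 fold change 0.45, SE 0.0874, adjusted p = 0.0019). SLC2A3 (GLUT3), a carrier of higher affinity, went from 8.12, 8.38 and 9.13 to 10.7, 11.6 and 10.5 (0.32, SE 0.0654, adjusted p = 0.00257). Every IL-1β library was above every untreated one for both genes. The SD of SLC2A1 was 0.29 untreated, 0.27 with IL-1β and 9.1 with PBSL, and its SE takes in all 3 groups. SLC2A3 resembles SLC2A14, which stayed below 1 in every library, and how reads shared by the pair were counted is not stated.

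In upper glycolysis 5 of 10 members rose by limma and 0 fell, also 0 at an unadjusted p under 0.05. The largest changes were in the regulators. PFKFB3 went from 26.9, 28.8 and 27.8 to 54.9, 55.5 and 55.4 (log2 fold change 0.96, SE 0.0486, adjusted p = 3.59e-08). PFKFB4 went from 9.61, 10.4 and 9.39 to 20.4, 21.9 and 20.8 (1.03, SE 0.0629, adjusted p = 1.78e-07). Both regulators were thus near a doubling of value + 1, with no overlap between libraries. HK2, the hexokinase that responds to insulin and hypoxia, rose from 3.75 ± 0.101 to 6.66 ± 0.287 (SD, n = 3 libraries; log2 fold change 0.69). HK1, the constitutive hexokinase, rose less, from 96.4 ± 2.76 to 107.9 ± 2.3 (0.16, adjusted p = 0.0161). PFKP, the platelet-type phosphofructokinase, rose from 110.0 ± 5.39 to 126.9 ± 5.38 (0.20, adjusted p = 0.0211). The HK1 call was lost without untreated 2, IL-1β 2 or IL-1β 3, and the PFKP call without untreated 3, IL-1β 1 or IL-1β 3, with adjusted p reaching 0.0822 and 0.0996.

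PFKL, the liver-type phosphofructokinase on chromosome 21 (44300051 to 44327376, hg38), was set by 1 library. Its values were 54.2, 50.8 and 54.7 in untreated libraries, 57.5, 243.6 and 60.1 with IL-1β, and 60.4, 55.0 and 49.1 with PBSL. IL-1β 2 was 4.04 times the next highest library, and the other 8 lay between 49.1 and 60.4. The fitted log2 fold change of 0.82 (SE 0.404, adjusted p = 0.146) became 0.14 (SE 0.0832, adjusted p = 0.253) without IL-1β 2. GPI, PFKM, ALDOA and ALDOC were not called, with fitted values between -0.0733 and 0.17.

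Lower glycolysis gave 3 rises in 7 members. PGK1, the first ATP-yielding step, went from 310, 304 and 315 to 451, 460 and 441 (log2 fold change 0.54, SE 0.0475, adjusted p = 4.24e-06). ENO2, the neuron-type enolase, went from 23.1, 26.2 and 23.3 to 43.1, 45.8 and 45.3 (0.86, SE 0.0716, adjusted p = 2.57e-06). PGAM1, a phosphoglycerate mutase, rose from 227.9 ± 5.88 to 270.5 ± 5.69 (0.25, adjusted p = 0.00598). GAPDH, TPI1, ENO1 and PKM were not called, with log2 fold changes of 0.11, 0.13, 0.10 and 0.020. GAPDH was the most abundant member at 4064 ± 133 in untreated cells, and PKM, ENO1, LDHA and ALDOA followed at 1777, 1495, 1411 and 1369. The last 3 of these means were less than 1 SD of LDHA (152) apart. Many of these genes have processed copies in the genome: GENCODE names 62 pseudogenes of GAPDH, 13 of PGAM1 and 39 of BNIP3. How reads shared with such copies were counted is not stated, so these values are uncertain to that degree. The 17 glycolytic enzymes together made up 1.90% to 1.96% of the summed values in untreated cells. In the IL-1β group they made up 2.04% to 2.11%, PFKL in IL-1β 2 included.

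At the pyruvate and lactate branch, the transcripts of both lactate transporters rose and that of LDHB fell. SLC16A1 (MCT1) went from 29.8, 29.1 and 30.1 to 47.2, 47.8 and 48.5 (log2 fold change 0.67, SE 0.0486, adjusted p = 7.81e-07). SLC16A3 (MCT4), the exporter typical of glycolytic cells, went from 366, 335 and 371 to 537, 540 and 525 (0.58, SE 0.0603, adjusted p = 1.74e-05). LDHB, the dehydrogenase subunit common in oxidative tissue, went from 275, 255 and 264 down to 221, 217 and 229 (-0.25, SE 0.0546, adjusted p = 0.00411), the only member that fell. Neither LDHA (0.15, adjusted p = 0.246) nor PDK1 (0.19, adjusted p = 0.119), the kinase that turns off pyruvate dehydrogenase, was called.

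Both HIF alpha subunits rose. EPAS1 had values of 20.8, 20.3 and 22.3 in untreated libraries and 43.3, 43.2 and 43.8 with IL-1β (log2 fold change 1.01, SE 0.0529, adjusted p = 5.15e-08). HIF1A, the more abundant subunit, went from 282, 277 and 261 to 353, 352 and 361 (0.38, SE 0.0792, adjusted p = 0.0032). Every IL-1β library was above every untreated one for both subunits. Of the other HIF targets, 6 of 8 rose. CA9 went from 1.85, 2.09 and 2.31 to 5.70, 5.91 and 5.55 (1.13, SE 0.0975, adjusted p = 3.75e-06), the largest fitted change among the members. Its relative CA12, also a membrane carbonic anhydrase, went from 15.3, 17.2 and 16.0 to 25.4, 26.1 and 25.2 (0.63, SE 0.0625, adjusted p = 1.14e-05). KDM3A, a histone H3 lysine demethylase, went from 13.6, 13.8 and 13.5 to 20.4, 20.2 and 21.2 (0.56, SE 0.0682, adjusted p = 5.87e-05). ADM, which encodes the vasoactive peptide adrenomedullin, rose from 13.3 ± 1.04 to 20.9 ± 1.25. BNIP3, a mitophagy receptor, rose from 62.6 ± 2.78 to 92.9 ± 6.26, and NDRG1, a stress-response gene, from 70.7 ± 6.66 to 98.5 ± 1.07. BNIP3L, the relative of BNIP3, and ANKRD37, a small HIF target, were not called, at 0.14 (adjusted p = 0.114) and 0.070 (adjusted p = 0.601).

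**Figure D2:**
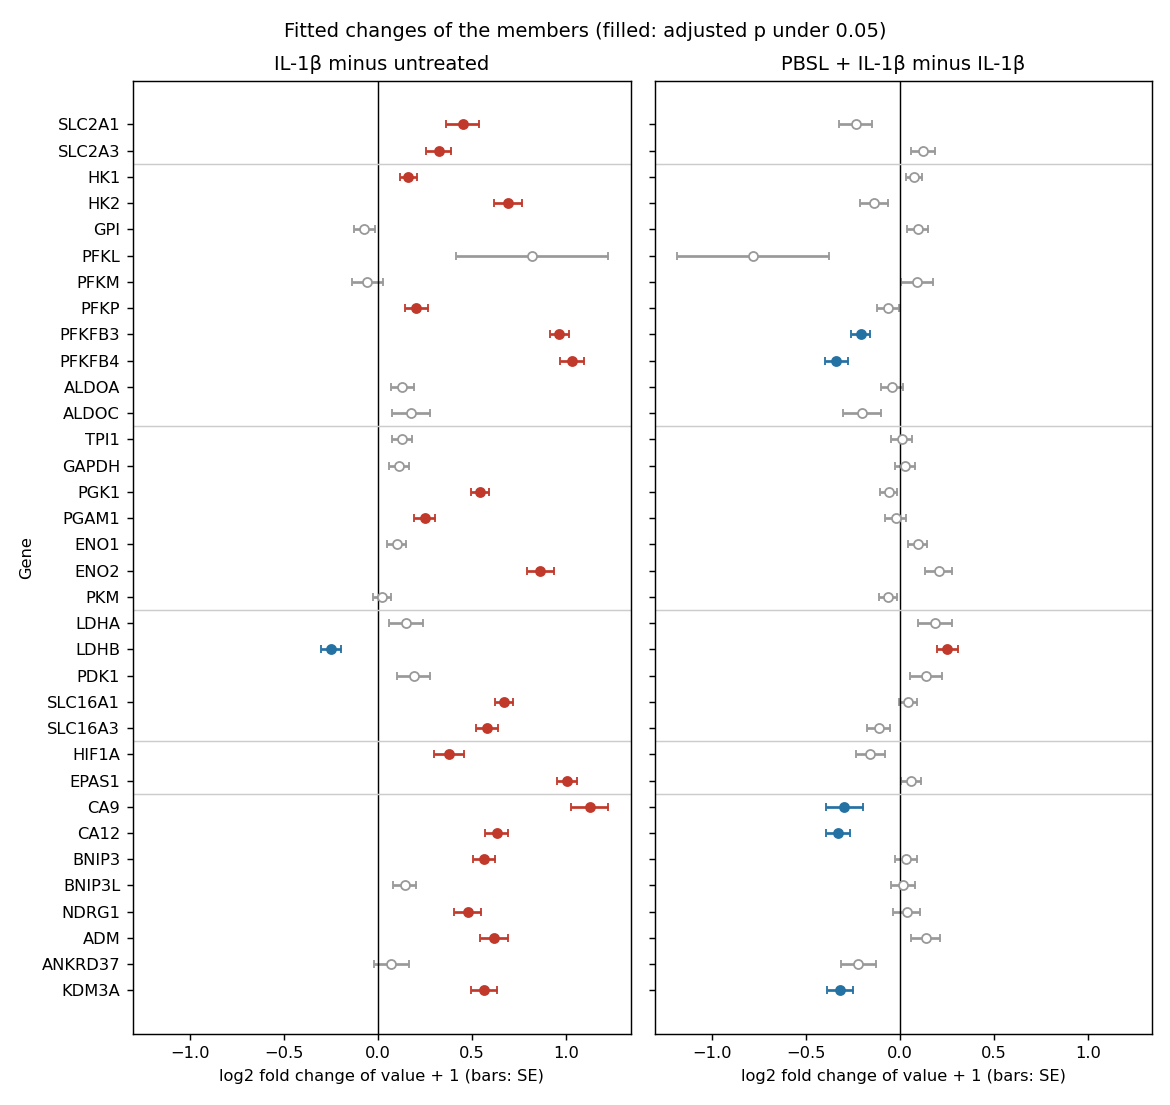
Log2 fold changes of value + 1 (x axis) with their SE (bars) for each member (y axis), IL-1β minus untreated at left and PBSL + IL-1β minus IL-1β at right; filled points were called. At left 20 members are called to the right of 0 and LDHB to the left, and at right 5 members are called to the left of 0 and LDHB to the right.

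PBSL before IL-1β lowered 5 of the 20 genes that IL-1β alone had raised, raised the 1 gene that it had lowered, and left 28 members without a call. PFKFB3, PFKFB4, CA9, CA12 and KDM3A fell (14.7% of the members), and LDHB rose (2.94%). Over all tested genes 11.0% fell and 11.5% rose, 22.5% in all, so the share of members that fell was near the background. The median log2 fold change was -0.0075 over the members and 0.0079 over all tested genes. For 8 members every PBSL library was below every IL-1β one and for 6 it was above, against 20.1% and 21.7% of all tested genes (41.8% in either direction). This comparison shares its IL-1β libraries with the first, so opposite signs in the pair are not separate evidence.

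PFKFB4 had values of 16.7, 17.2 and 15.4 with PBSL (16.4 ± 0.945, against 21.03 ± 0.751 with IL-1β alone; log2 difference -0.34, SE 0.0629, adjusted p = 0.00496). CA12 had 20.4, 18.8 and 21.3, or 20.2 ± 1.28 against 25.6 ± 0.484 (-0.33, SE 0.0625, adjusted p = 0.00526). KDM3A had 17.5, 14.5 and 17.02, or 16.4 ± 1.6 against 20.6 ± 0.526 (-0.32, SE 0.0682, adjusted p = 0.00858). All 3 PBSL libraries of these genes lay below the lowest IL-1β library and above the highest untreated one. PFKFB3 had 49.0, 47.7 and 46.3, or 47.7 ± 1.38 against 55.2 ± 0.328 (-0.21, SE 0.0486, adjusted p = 0.0121). Its call was lost without IL-1β 2 or IL-1β 3, with adjusted p up to 0.0534. CA9 had 5.30, 4.39 and 3.83, or 4.51 ± 0.741 against 5.72 ± 0.183 (-0.30, SE 0.0975, adjusted p = 0.0485). The CA9 call was held in 2 of 14 alternatives, and its adjusted p ran from 0.0058 to 0.152. LDHB had 247, 274 and 274, or 265 ± 15.4 against 222.2 ± 6.25 (0.25, SE 0.0546, adjusted p = 0.00923), and its values overlapped those of untreated cells.

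**Figure D3:**
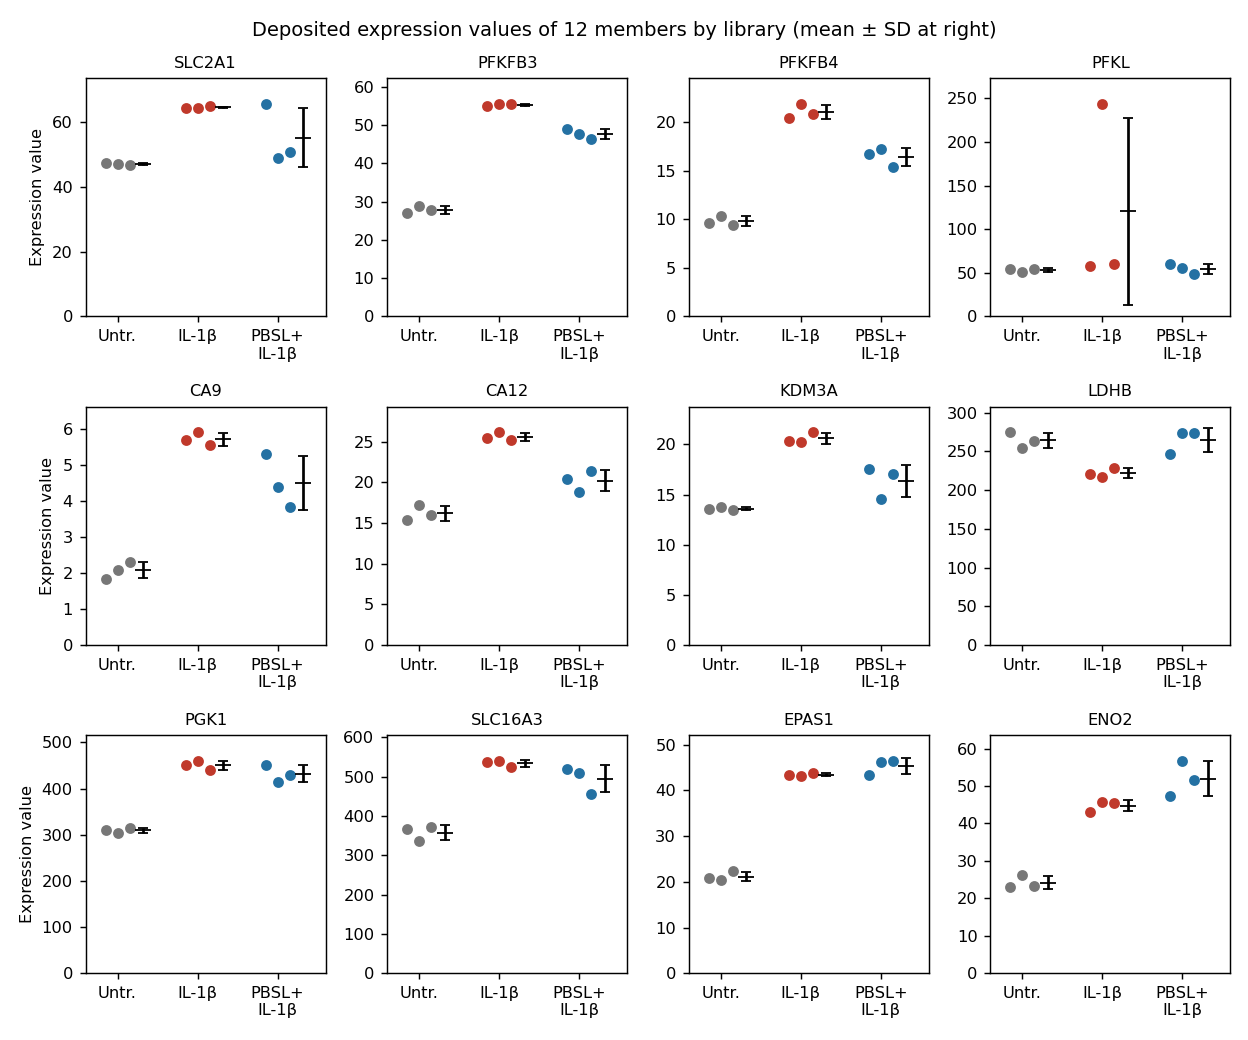
Deposited expression values (y axis, from 0) of 12 members in the 3 libraries of each group (points), with the mean ± SD beside them. PFKFB3, PFKFB4, CA12 and KDM3A with PBSL lie between the untreated and the IL-1β libraries, LDHB with PBSL overlaps the untreated libraries, and PFKL is at 243.6 in IL-1β 2 alone.

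PBSL 1 stood apart from PBSL 2 and PBSL 3 for several members. SLC2A1 was 65.6 in PBSL 1, above all 3 IL-1β libraries, and 49.0 and 50.8 in the others, close to untreated cells. Its log2 fold change was -0.23 (SE 0.0874, adjusted p = 0.0732), and -0.36 (adjusted p = 0.000246) without PBSL 1. HK2 showed 6.65 against 5.50 and 5.76, and ALDOC, the brain-type aldolase, 17.3 against 12.6 and 13.1. Without PBSL 1 both were called lower, at -0.21 (adjusted p = 0.0415) and -0.33 (adjusted p = 0.00546), and ENO2 was called higher at 0.27 (adjusted p = 0.0122). Thus 8 members fell and 2 rose without PBSL 1, where 5 fell and 1 rose with it. Over all tested genes the called numbers also moved without this library, from 1314 lower and 1370 higher to 1890 lower and 2020 higher. PBSL 1 was picked out after its values were seen, and only PBSL 2 and PBSL 3 remain without it. The calls made without PBSL 1 are therefore a description and no support for a change. HIF1A was set by a different library: it was 346 and 342 in PBSL 1 and PBSL 3 and 273 in PBSL 2, inside the untreated range. It was not called (-0.16, SE 0.0792, adjusted p = 0.175).

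Lactate exporters, PGK1, EPAS1 and most other HIF targets were not called. SLC16A1 was 49.3 ± 1.92 with PBSL and 47.8 ± 0.638 without, SLC16A3 494.5 ± 34.4 and 533.9 ± 8.18 (all PBSL libraries lower), and EPAS1 45.3 ± 1.67 and 43.4 ± 0.354. PGK1, BNIP3, NDRG1 and ADM had log2 fold changes of -0.061, 0.030, 0.035 and 0.14. None of these 7 was called, with adjusted p of 0.199 or more, which does not show that the groups are equal. ENO2 had 47.4, 56.7 and 51.5 against 43.1, 45.8 and 45.3 with IL-1β alone, all higher but not called (0.21, adjusted p = 0.0581). PFKL had a fitted change of -0.78 (adjusted p = 0.184), and -0.10 (adjusted p = 0.438) without IL-1β 2.

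Cells given both agents were then set against untreated cells. Here 21 members were higher (61.8%) and 0 lower by limma, where 22.3% and 19.3% of all tested genes were (41.6% in all). At an unadjusted p under 0.05, 26 members were higher and 0 lower, where 5965 of 11924 tested genes passed in either direction. None was called lower under any of the 14 alternatives. The median was 0.24 over the members and 0.031 over all tested genes. Libraries lay wholly above the untreated ones for 22 members and wholly below for 1, against 26.0% and 22.1% of all tested genes (48.2% in either direction). This comparison shares its libraries with both others, so its values are given beside theirs and are no separate support. The 5 genes that PBSL lowered were still above untreated cells, with log2 fold changes of 0.76 for PFKFB3, 0.69 for PFKFB4, 0.83 for CA9, 0.30 for CA12 and 0.24 for KDM3A. ENO2 (1.07, SE 0.0716) and EPAS1 (1.06, SE 0.0529) had the largest differences. ENO1, LDHA and PDK1, which were not called in either other comparison, were higher here at 0.19 (adjusted p = 0.00972), 0.33 (adjusted p = 0.0119) and 0.33 (adjusted p = 0.00995). Leaving out untreated 2 took LDHA past the threshold (adjusted p = 0.05003), and its values of 1755, 1571 and 2008 with PBSL overlapped the untreated 1585, 1310 and 1337. HIF1A was called at 0.22 (adjusted p = 0.0427) and lost the call in 10 of 14 alternatives, with adjusted p up to 0.138. SLC2A1 and PFKP, raised by IL-1β alone, were not called here (adjusted p = 0.0664 and 0.0776).

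Ratios between members that share a step do not depend on the scale of a library. Of 12 pairs, 6 ratios lay wholly higher and 3 wholly lower with IL-1β than in untreated libraries. With PBSL against IL-1β alone, 3 lay wholly higher, 1 wholly lower and 8 overlapped. The 3 higher ones were narrowly apart. For SLC2A3 to SLC2A1 the lowest PBSL ratio was 0.1793 and the highest IL-1β ratio 0.1792. For PFKM to PFKL these were 0.319 and 0.3134, and for EPAS1 to HIF1A 0.1255 and 0.1226. Ratios of other gene pairs were not taken, so the counts of pairs have no background beside them. The HK2 to HK1 ratio was 0.0375, 0.0393 and 0.0398 untreated, 0.0634, 0.0642 and 0.0575 with IL-1β, and 0.0580, 0.0483 and 0.0510 with PBSL. HK1 thus stayed the far more abundant hexokinase transcript in every library. The LDHA to LDHB ratio was 5.33 ± 0.388 untreated, 7.002 ± 0.117 with IL-1β and 6.72 ± 0.867 with PBSL, where PBSL 2 was at 5.73 and the other libraries at 7.10 and 7.34. ENO2 stayed a minor form, at 0.0162 ± 0.00195 of ENO1 untreated, 0.0280 ± 0.000676 with IL-1β and 0.0304 ± 0.0029 with PBSL. For EPAS1 to HIF1A the ratio was 0.0775 ± 0.00675, 0.122 ± 0.000731 and 0.143 ± 0.0225, and all PBSL libraries lay above all IL-1β ones. The PFKFB4 to PFKFB3 ratio was 0.352 ± 0.0122, 0.381 ± 0.0117 and 0.345 ± 0.0145, the IL-1β libraries lying above both other groups. BNIP3 to BNIP3L was 1.08 ± 0.0428, 1.45 ± 0.0362 and 1.47 ± 0.097. PFKM to PFKL was 0.0800 in IL-1β 2 and 0.313 and 0.303 in the other IL-1β libraries, all below the untreated 0.340 to 0.377. An exact permutation test of 3 against 3 libraries, 2-sided, cannot give a p below 0.1, and over the 36 tests of ratios the smallest adjusted value was 0.189, so no ratio passed the threshold.

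**Figure D4:**
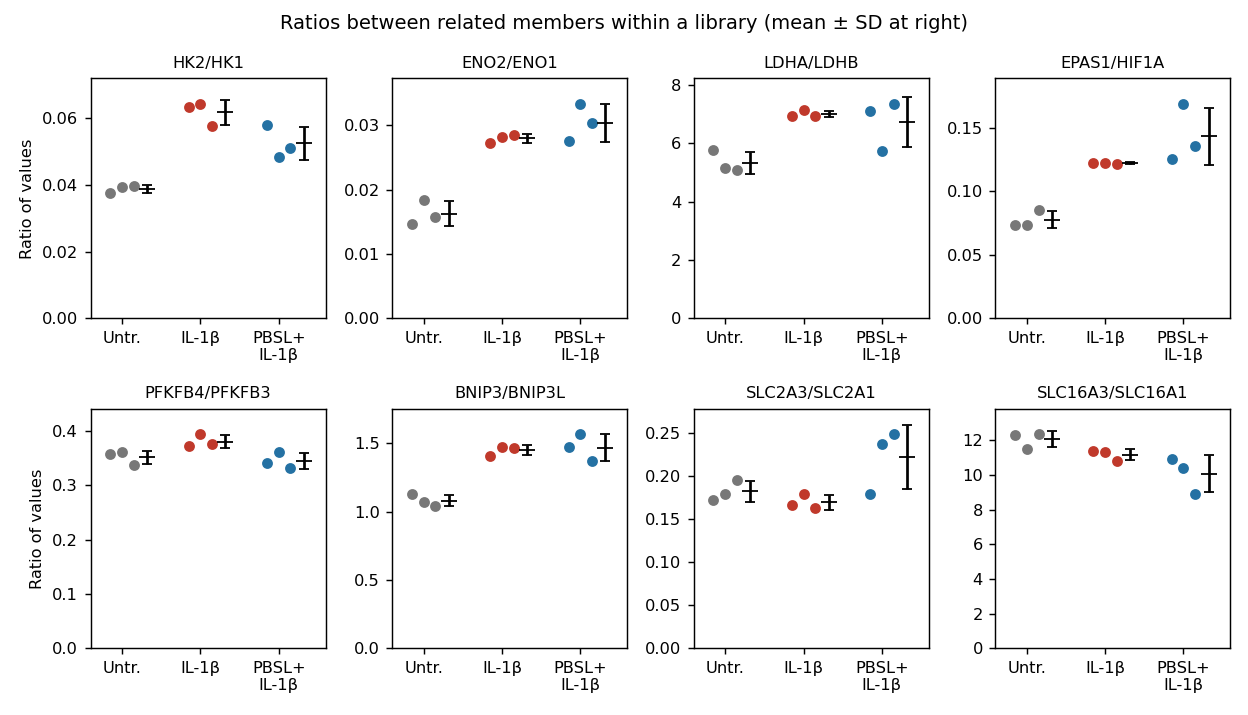
Ratios of the values of paired members within each library (points; y axis from 0), with the mean ± SD of each group. The HK2, ENO2, LDHA, EPAS1 and BNIP3 ratios are higher in all IL-1β than in all untreated libraries, and SLC2A3 to SLC2A1 is highest in PBSL 2 and PBSL 3 at 0.237 and 0.248.

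Other genes of the pathways were read from lists outside the members. These lists were chosen with earlier results of these data known, so their counts are descriptions and no independent support. They share genes: CITED2 is in the hypoxia and HIF regulator lists, and PFKFB2 in the hypoxia and glycolysis lists. Of 50 tested genes reported to respond to hypoxia, 37 rose (74.0%) and 5 fell (10.0%) with IL-1β, with a median log2 fold change of 0.45, where 16.2% and 16.0% of all tested genes did. IER3, an early-response survival gene, rose from 0.956 to 37.7, MAFF, a small MAF transcription factor, from 2.90 to 11.3, and P4HA2, a collagen prolyl hydroxylase subunit, from 46.7 to 108.6. ZNF395, AK3 and CITED2 fell, by 0.66, 0.39 and 0.53 on the log2 scale. With PBSL, 15 of the 50 fell (30.0%) against IL-1β alone and 3 rose (6.0%), with a median of -0.094, where 11.0% and 11.5% of all tested genes did. IGFBP3, which binds insulin-like growth factors, fell from 319.7 to 194.9, and LOX, a collagen crosslinking oxidase, from 303.6 to 201.6. STC1, SAP30 and RRAGD rose, at log2 fold changes of 0.80, 0.63 and 0.38. VEGFA, the angiogenic growth factor, was at 49.2 in untreated cells, 107.1 with IL-1β alone (adjusted p = 3.65e-07) and 122.6 with both agents, and the last pair was not called apart (adjusted p = 0.0836). Several of these genes are also known to respond to inflammatory signals, so the list is not specific to oxygen.

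Of 14 tested regulators of the HIF pathway, 1 rose and 1 fell with IL-1β (7.14% each). These shares were below the 16.2% and 16.0% of all tested genes. ARNT, the shared partner of both alpha subunits, rose from 8.08 ± 0.0489 to 10.4 ± 0.147 (log2 fold change 0.32, adjusted p = 0.00144). CITED2, which competes with HIF-1α for its coactivators, fell from 91.4 ± 1.83 to 62.9 ± 2.56 and again to 47.4 ± 8.23 with PBSL (adjusted p = 0.000949 and 0.0108). OS9 also fell with PBSL (-0.28, adjusted p = 0.00885). With PBSL against IL-1β alone, 0 of the 14 rose and 2 fell (14.3%), where 11.5% and 11.0% of all tested genes did. Of 25 further glycolysis and pyruvate genes, 5 rose (20.0%) and 4 fell (16.0%) with IL-1β, and 4 rose (16.0%) and 2 fell (8.0%) with PBSL. These shares were near those of all tested genes. SLC2A6, a glucose transporter family member, rose from 8.40 to 24.2 with IL-1β, and ADPGK, an ADP-dependent glucokinase, from 24.6 to 33.4. MPC1, a subunit of the mitochondrial pyruvate carrier, fell from 23.5 to 18.4, and PC, or pyruvate carboxylase, from 4.96 to 3.07. With PBSL, SLC16A4 and PCK2 fell (-0.83 and -0.73), and DLAT, part of pyruvate dehydrogenase, rose (0.35). Of 7 pentose phosphate genes, 0 rose and 3 fell (42.9%) with IL-1β by limma, where 16.2% and 16.0% of all tested genes did. At an unadjusted p under 0.05 the numbers were the same, and 4987 of 11924 tested genes passed in either direction. Among the 7, TKT, a transketolase, and its relative TKTL1 fell by 0.45 and 0.54 on the log2 scale.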

How the data were processed

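Per the labels, 9 RNA libraries in 3 groups were made with a directional MGIEasy kit. The submitters' processing notes name Trim Galore, STAR, HTSeq and hg38, with no versions or roles given. The authors deposited normalized signal values, 1 column per library, in a unit that neither header nor labels name. Steps between alignment and these values, and the handling of reads shared by several genes, are not given in the sources used here. Since these are not counts, the test planned for normalized values (limma) was run, and the test planned for counts was not.

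From the deposited values, genes at 1 or more in at least 3 libraries were kept (11924), 1 was added and log2 taken. limma 3.58.1 (R 4.3.3) was fitted with a variance trend to all 9 libraries with group means, leaving 6 residual degrees of freedom. The procedure was tested on simulated data. Members and lists were chosen with earlier results of these data known. Every member is named, and from each other list up to 3 called genes with the smallest p per direction and comparison. Some genes that this rule names are not reported here. Chromosomal positions of genes come from GENCODE 29 and promoters from RefSeq. Alternatives were a pseudocount of 0.1, no filter, median-ratio rescaling, only the groups compared, a replicate block, and leaving out each library. Counts and ratios were computed in Python (3.11.15) with pandas (2.3.3).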

Additional observations from a re-analysis of the deposited data

How the results depend on the processing

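Against untreated cells, the number of members that rose with IL-1β stayed between 18 and 22 over the 14 alternatives, and that with PBSL between 19 and 24. With PBSL against IL-1β alone, the number that fell was 3 without IL-1β 2, 8 without PBSL 1 and 4 or 5 under all others. The number that rose was 1, and 2 without PBSL 1 and with a replicate block, where ENO2 was added (adjusted p = 0.038). The labels give shared numbers but no shared origin, and same-numbered libraries had correlated deviations between -0.225 and 0.0681, so the block was not taken as a pairing. CA9 lost its call under it (adjusted p = 0.0782). Of 476 member values over the 14 alternatives in each of the 3 comparisons, 2, 10 and 11 changed sign, and 0 of these belonged to a called member. Adding 1 to both values moved some ratios, CA12 to CA9 most, from 7.81 to 5.59 in untreated libraries. Median-ratio factors ran from 0.996 to 1.01. Without the last 50 bases, 20 of 30 member promoters (66.7%) held the motif, against 57.8% of tested genes' and 43.1% of all promoters. Leaving out IL-1β 1, IL-1β 2, IL-1β 3 or PBSL 2 also lowered the genes called over the whole table with PBSL, from 1370 higher and 1314 lower to between 648 and 723 higher and between 656 and 728 lower. The depth is unknown, so counting error could not be set beside any value.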

Other observations

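PFKL in IL-1β 2 belonged to a small set of genes. Of 4765 genes that reached 20 in some library, 5 had a value in 1 library at least 3 times that of every other library. These were BPIFA1, SLPI and CDK10 in untreated 1, ADARB1 in untreated 2 and PFKL in IL-1β 2. BPIFA1, an airway secretory protein gene, was at 27.4 against 0.493 in the next library, and SLPI, a secreted protease inhibitor, at 27.9 against 2.61. PFKL was at 243.6 against 60.4. The genes were picked out after their values were seen, and what set them apart was not tested.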
